A study of Mus musculus with 6 samples.

Results

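The MYC, MAX and MXD network is a family of transcription factors of the basic helix-loop-helix leucine zipper class. Here 10 of its mouse genes were compared between separately sorted populations of quiescent and activated neural stem cells. The members were taken by name, as all probe sets that the platform annotation pairs with exactly 1 gene, that gene being Myc, Mycn, Mycl, Max, Mxd1, Mxd3, Mxd4, Mxi1, Mlx or Mnt. All 10 genes were found, of the 18193 genes with such a probe set on the array, and they were covered by 24 probe sets. The cells came from the ventricular-subventricular zone of adult mice, a region beside the lateral ventricles in which neurons are made throughout life. Both sorted populations carried GFP under the GFAP promoter and surface CD133 and lacked CD24, and the activated population (GFAP::GFP+CD133+EGFR+CD24-) was in addition positive for the EGF receptor. The labels name no EGF receptor gate for the quiescent population (GFAP::GFP+CD133+CD24-), and they give no strain, sex or number of pooled animals. Each population was measured on 3 arrays, called biological replicates in the labels. Where arrays of a group shared animals or sort days is not stated, so p-values measure the spread between these arrays.

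MYC, N-MYC (from Mycn) and L-MYC (from Mycl) bind DNA as dimers with MAX, mostly at the E-box CACGTG, and raise the transcription of genes for growth, ribosome production and division. The MXD proteins and MNT compete for MAX and for the same sites and recruit SIN3 and histone deacetylases, which lowers transcription. MLX is a second dimerization partner that joins some MXD proteins, MNT and the glucose-sensing Mondo proteins. In the developing brain Mycn is the MYC gene best known for keeping neural progenitors dividing, while MXD1, MXI1 and MXD4 are associated with cells that leave the cycle, and Mxd3 is the MXD gene associated with S phase.

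The promoters of the 3 members that rose are shown first, because they differ in which of the searched motifs they hold. They are the 250 bases before the annotated start site, 5′ to 3′ on the gene's strand, from RefSeq on GRCm38.p6, at chr12:12941837-12942086 on the minus strand for Mycn, chr4:122995681-122995930 on the plus strand for Mycl and chr13:55329732-55329981 on the minus strand for Mxd3. Capitals mark E-boxes (CACGTG) and the E2F motifs TTTGGCGC and TTTCGCGC, each searched on both strands.
Mycn: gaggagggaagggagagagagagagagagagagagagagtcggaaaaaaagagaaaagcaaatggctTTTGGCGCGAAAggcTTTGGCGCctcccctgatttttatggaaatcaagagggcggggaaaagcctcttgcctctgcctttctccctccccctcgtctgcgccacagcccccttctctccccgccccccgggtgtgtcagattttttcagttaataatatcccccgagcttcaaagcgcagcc
Mycl: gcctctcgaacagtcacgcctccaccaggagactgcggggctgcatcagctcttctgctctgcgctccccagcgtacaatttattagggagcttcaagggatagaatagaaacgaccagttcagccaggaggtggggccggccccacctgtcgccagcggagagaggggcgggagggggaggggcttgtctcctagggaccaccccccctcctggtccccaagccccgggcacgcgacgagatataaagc
Mxd3: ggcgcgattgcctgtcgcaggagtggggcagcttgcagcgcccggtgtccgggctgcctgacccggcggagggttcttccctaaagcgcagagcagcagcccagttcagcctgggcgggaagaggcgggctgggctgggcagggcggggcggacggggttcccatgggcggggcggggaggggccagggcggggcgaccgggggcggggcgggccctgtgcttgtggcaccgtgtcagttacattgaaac

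In the Mycn promoter TTTGGCGC occurred 183 and 168 bases before the start site, and TTTCGCGC on the opposite strand 179 bases before it, overlapping the first by 4 bases. No capital letters appear for Mycl and Mxd3, since neither window of 300 bases (250 before and 50 after the start) held any of these motifs. Either E2F motif was present in the window of 0.929% of the 27025 genes in the promoter table, and in 1 of the 9 members listed there. The E-box was present for 4 of these 9 members (44.4%), against 8.09% of all genes. Windows were matched for 9 members, and Myc had none. No E-box was found for the 3 that rose, nor for Mxd1 and Mxi1, which did not pass the test below. A link between the motif and the differences was not tested. The 4 with an E-box were Max, Mxd4, Mlx and Mnt, which did not pass the test below either. Their E-boxes are shown in capitals within 30 bases, at chr12:76962234-76962263 (minus strand) for Max, chr5:34187912-34187941 (minus) for Mxd4, chr11:101087238-101087267 (plus) for Mlx and chr11:74830789-74830818 (plus) for Mnt.
Max: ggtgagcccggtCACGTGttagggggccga
Mxd4: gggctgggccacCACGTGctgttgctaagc
Mlx: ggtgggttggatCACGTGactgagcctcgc
Mnt: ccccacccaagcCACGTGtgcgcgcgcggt

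They began 3 bases before the start site in Max, 40 in Mlx, 123 in Mnt and 219 in Mxd4. The motifs are matches of letters, not measured binding sites, and the E2F motifs were chosen after the Mycn sequence had been read. Other forms of the E2F motif were not searched, so their presence in the Mycl and Mxd3 promoters is not known from this search.

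Values are the authors' log2 MAS5 signals. Differences are activated minus quiescent on that log2 scale, given ± SE from limma's moderated test with n = 3 arrays per group, and adjusted p-values are Benjamini-Hochberg over all 11575 genes tested, of which those under 0.05 were called. One probe set, the brightest, stood for each gene. Of the 10 members, all were bright enough to be tested, 3 rose in activated cells, 0 fell and 7 did not pass (limma, with 1 lower at an unadjusted p under 0.05). Among all tested genes 17.3% rose and 17.6% fell. The 2 groups of arrays did not overlap for the same 3 members, where this held for 50.7% of all tested genes. The median difference was 0.41 over the members and 0.01 over all tested genes. Signals are per amount of amplified RNA, so fewer cells with a transcript and less transcript per cell cannot be told apart.

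**Figure D1:**
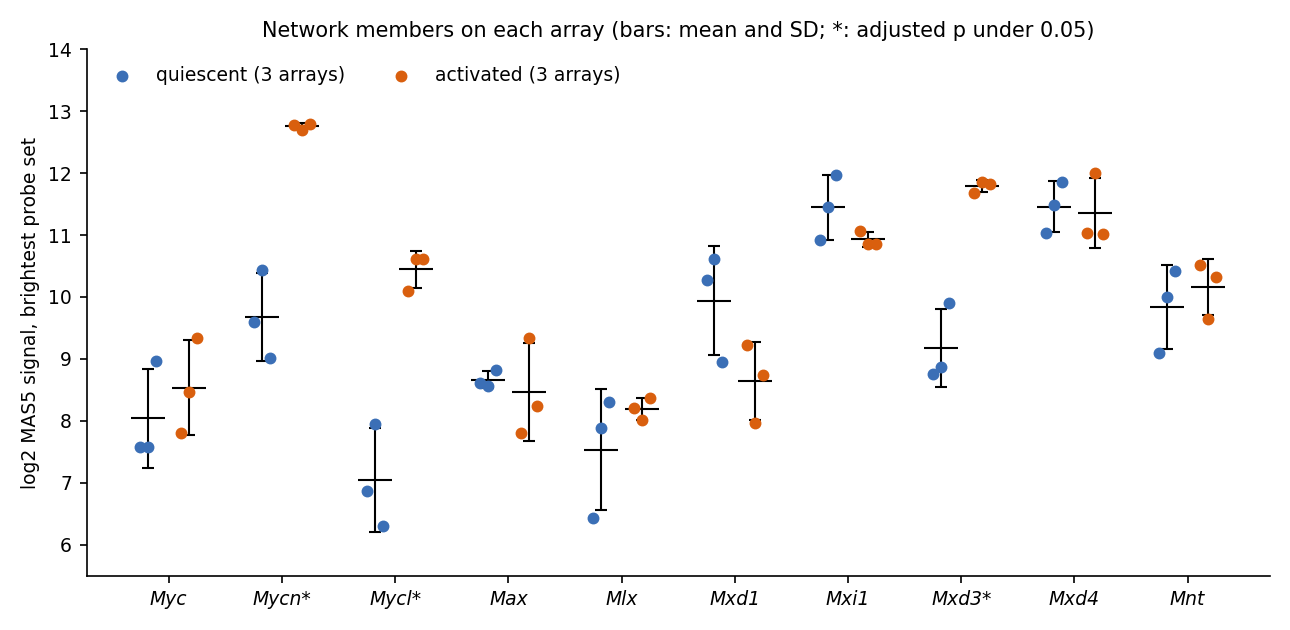
The log2 MAS5 signal of each member's brightest probe set is plotted for the 3 quiescent (blue) and 3 activated (orange) arrays, with black bars for the mean and whiskers for the SD. Mycn, Mycl and Mxd3, marked with a star for an adjusted p under 0.05, are the members whose orange points all lie above the blue ones, while the groups overlap for the other 7.

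Of the MYC genes, Mycn and Mycl rose and Myc did not pass the test. Mycn read 9.59, 10.43 and 9.01 on quiescent arrays 1 to 3 and 12.77, 12.70 and 12.79 on activated arrays 1 to 3. All activated arrays were above every quiescent one, and they lay within 0.05 (SD) of each other against 0.72 among the quiescent arrays. The difference was 3.08 ± 0.35, or 8.44-fold with a 95% interval of 4.92 to 14.5 (limma adjusted p = 0.000161), and 2.83% of tested genes had a higher difference.

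Mycl, the third MYC gene, read 6.86, 7.95 and 6.31 on the quiescent and 10.10, 10.62 and 10.62 on the activated arrays. The groups were separated by more than the spread within either of them (SD 0.84 and 0.30). The difference was 3.41 ± 0.48, or 10.6-fold with an interval of 5.08 to 22.1 (limma adjusted p = 0.000479), and 2.15% of tested genes had a higher one.

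Myc itself read 7.58, 7.58 and 8.96 on the quiescent and 7.81, 8.47 and 9.34 on the activated arrays. The groups overlapped, and the difference of 0.50 ± 0.56 had a 95% interval of -0.74 to 1.73 (limma adjusted p = 0.509). With 1 array left out it lay between 0.0969, without activated array 3, and 0.96, without quiescent array 3, and it was not called in any setting. Its interval ended below those of Mycn (2.30 to 3.86) and Mycl (2.35 to 4.46), although the difference between these changes was not tested. A single probe set represented Myc, all 6 of its values were above the array background, and a change of up to 3.32-fold upward lies within the interval.

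The common partners showed no difference that passed the test. Max, the dimerization partner of the MYC proteins and of the MXD proteins, read 8.61, 8.56 and 8.82 on the quiescent and 7.81, 9.34 and 8.23 on the activated arrays. Its activated arrays lay on both sides of the quiescent ones, with a difference of -0.20 ± 0.47 (interval -1.24 to 0.84, limma adjusted p = 0.758). Mlx read 6.43, 7.88 and 8.30 against 8.205, 8.02 and 8.36, so that quiescent array 1 alone stood well below the other 5. Its difference of 0.66 ± 0.55 (interval -0.57 to 1.89, adjusted p = 0.377) was 0.11 without that array. The second Mlx probe set differed by -0.12.

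Among the MXD genes and Mnt, Mxd3 rose and none of the other 4 passed the test. Its signals were 8.75, 8.87 and 9.90 on quiescent and 11.68, 11.86 and 11.83 on activated arrays. Activated arrays were within an SD of 0.10 and all above the quiescent ones. The rise of 2.62 ± 0.35 equals 6.14-fold, with an interval of 3.60 to 10.5 (limma adjusted p = 0.00035), and 4.17% of tested genes had a higher difference.

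Mxd1, the founding antagonist of MYC, read 10.27, 10.61 and 8.95 on the quiescent and 9.22, 7.97 and 8.73 on the activated arrays. Quiescent array 3 lay among the activated ones, and the difference of -1.30 ± 0.50 did not pass (interval -2.41 to -0.19, unadjusted p = 0.0258, limma adjusted p = 0.0671). Without quiescent array 3 it was -1.80 and passed (adjusted p = 0.00854). Over the other alternatives its adjusted p reached 0.377. Its further probe sets differed by -0.15 and -1.03, and neither passed.

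Mxi1, which encodes the antagonist also called MXD2, had signals of 10.92, 11.46 and 11.96 against 11.07, 10.86 and 10.86. The difference of -0.52 ± 0.31 did not pass (interval -1.20 to 0.16, limma adjusted p = 0.212). A second Mxi1 probe set read 11.17, 10.67 and 11.14 on quiescent and 10.04, 10.34 and 10.35 on activated arrays. There the groups did not overlap, but the difference of -0.75 ± 0.28 missed the threshold in the fit of all probe sets (adjusted p = 0.0676).

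Mxd4 read 11.04, 11.48 and 11.85 on quiescent and 11.03, 12.002 and 11.01 on activated arrays. The groups overlapped almost wholly, and the difference of -0.11 ± 0.34 had an interval of -0.87 to 0.65 (limma adjusted p = 0.827). Mnt, a broadly expressed antagonist that pairs with MAX and MLX, read 9.09, 9.99 and 10.42 against 10.52, 9.65 and 10.33. It differed by 0.33 ± 0.41 (interval -0.57 to 1.23, limma adjusted p = 0.554), and by -0.04 without quiescent array 1. For the brightest probe sets, the intervals of Mxd1, Mxi1, Mxd4 and Mnt all ended below that of Mxd3 (1.85 to 3.39). The dimmest Mxd3 probe set, described below, had a wider interval of -0.27 to 3.43. The difference between the changes of these genes was not tested.

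The members were next compared by probe set, since several probe sets of a gene interrogate different stretches of its transcript. In a fit of all 22607 single-gene probe sets above the brightness filter, 21 of the 24 member probe sets were tested, 7 rose and 0 fell (limma, with 2 lower at an unadjusted p under 0.05). Of all tested probe sets 15.6% rose and 16.3% fell. All 7 belonged to Mycn, Mycl and Mxd3. The dimmest Mycl and the second Mxd3 probe set had quiescent means of 4.81 and 5.68, below the brightness filter of 6.02. These 2 were tested only through their activated arrays, so the count was partly set by the filter. In a fit without the filter 7 of the 24 rose.

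The second Mycn probe set read 8.95, 8.88 and 8.61 on the quiescent and 11.11, 11.80 and 12.28 on the activated arrays, a difference of 2.92 ± 0.35. It differed from the value of the brightest by less than the SE of either. The third was below the array background on all 6 arrays and gave no level. Because its values count equally, the mean over the Mycn probe sets differed by 1.48 (limma adjusted p = 0.00982), less than the 3.08 of the brightest.

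All 3 Mycl probe sets rose. Besides the brightest, the dimmest read 3.14, 5.67 and 5.63 against 8.65, 9.20 and 8.44 and rose by 3.95 ± 0.75, with quiescent array 1 below background. The remaining one rose by 2.06 ± 0.53 (limma adjusted p = 0.0142). For Mxd3 the second probe set read 5.26, 5.61 and 6.17 against 9.498, 9.63 and 10.08, a rise of 4.06 ± 0.48, larger than the 2.62 of the brightest. Its first quiescent value was below background. The remaining Mxd3 probe set read 7.97, 6.92 and 4.29 on the quiescent and 7.88, 7.77 and 8.27 on the activated arrays. Quiescent array 1 lay among the activated ones and quiescent array 3 was below background, and the difference of 1.58 ± 0.84 did not pass (adjusted p = 0.172).

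The 3 further Mxd4 probe sets differed by -0.33, -0.97 and -1.63, the last being too dim to be tested, and no tested one passed. The second Mnt probe set was below background on all 3 quiescent arrays and too dim to be tested.

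**Figure D2:**
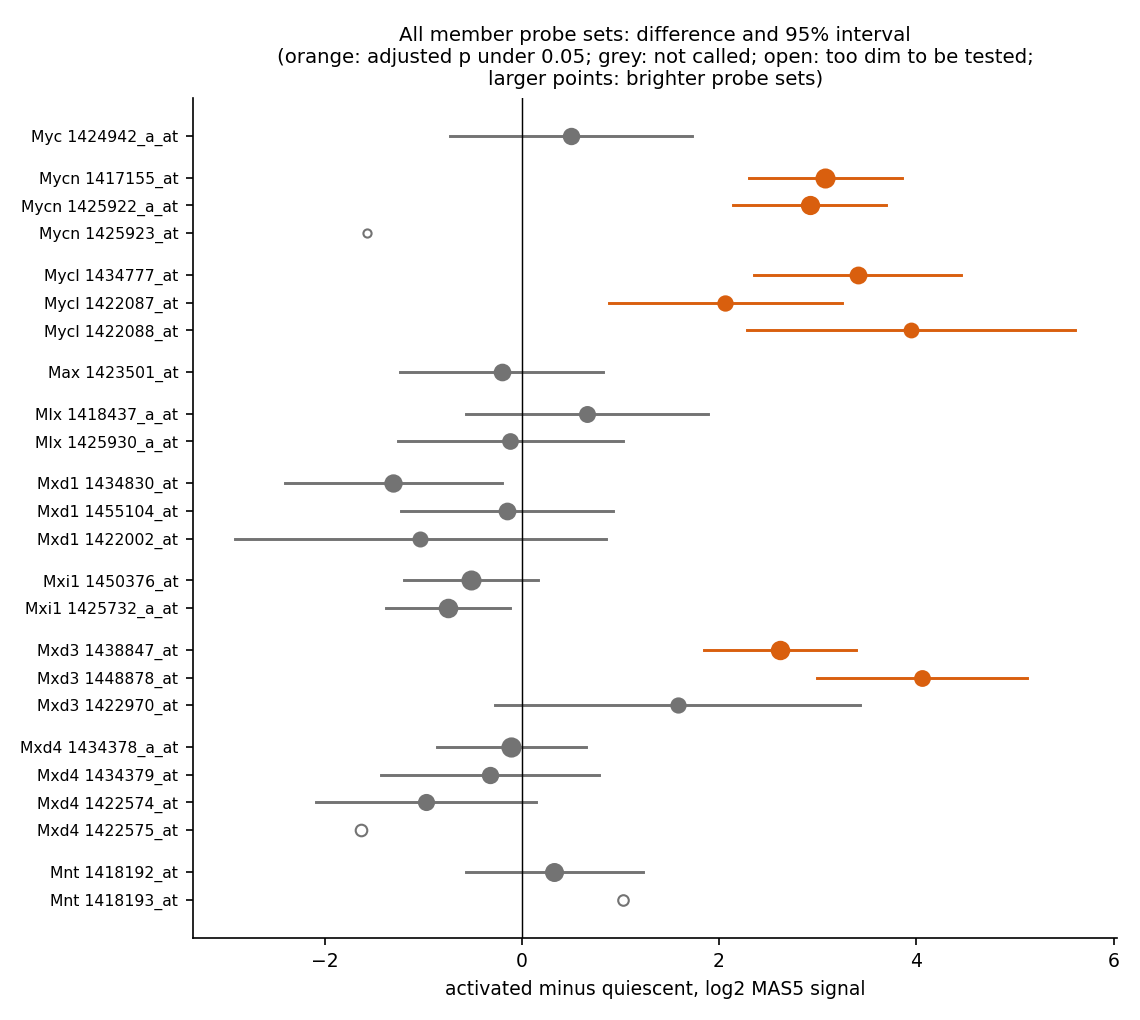
Each row is 1 of the 24 member probe sets, with its activated minus quiescent difference in log2 MAS5 signal as a point and the 95% interval as a line. The 7 orange rows that passed an adjusted p of 0.05 are those of Mycn, Mycl and Mxd3, and the 3 open points were too dim to be tested.

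Several array measures moved with the groups and were read beside these results. Quiescent arrays had higher hybridisation controls (14 to 14.9 against 13.6 to 13.7 in log2 signal), a higher background (5.45 to 6.10 against 4.52 to 4.67) and a larger excess of the 3′ over the 5′ Gapdh control (1.54 to 2.59 against 1.19 to 1.51), and quiescent array 1 was the highest in all of these. The same measure for actin overlapped between the groups (-0.24 to 0.0673 quiescent, -0.111 to 0.20 activated), and quiescent array 1 was the lowest in it. Scaling to the hybridisation controls adds 0.64 to every difference, moves the median of all tested genes from 0.01 to 0.66 and the share of calls that were higher from 49.6% to 76.4%. Under it the members called were again Mycn (3.72), Mycl (4.05) and Mxd3 (3.26), and 0 members fell, but Max, Mxd4 and Mxi1 changed sign to 0.44, 0.54 and 0.13. Without quiescent array 1 the differences were 3.03 for Mycn, 3.32 for Mycl and 2.40 for Mxd3, all still called. The part of these measures in the differences was not tested further.

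Markers of the sort and of other cells also differed. Egfr was 2.11 ± 0.24 higher in activated cells, and the CD24 gene Cd24a 4.13 ± 0.50 higher although CD24 protein was absent by the gate, while Gfap fell by 4.18 ± 0.58 and Prom1, which encodes CD133, fell by 1.22 ± 0.32. Of 9 tested proliferation markers 9 rose, their summed linear signal lying between 4677 and 12878 on quiescent and between 55847 and 65678 on activated arrays. Of 8 neuroblast markers 5 rose (sum 4541 to 10981 against 42498 to 50194). Of 11 tested mature oligodendrocyte markers 11 fell (sum 22696 to 89044 against 2457 to 6465). Endothelial, pericyte and ependymal markers fell in 3 of 4, 3 of 3 and 2 of 2 tested cases, with sums of 1327 to 3958 against 166 to 257, 4493 to 8154 against 159 to 531 and 3199 to 6020 against 391 to 430. The matched markers numbered 9, 6 and 6, the others being too dim to be tested. Of those tested, Cldn5, Flt1, Tek, Rgs5, Vtn and Ccdc153 passed the brightness filter of 6.02 only through their quiescent arrays. The same held for the oligodendrocyte markers Mog, Mag, Ermn, Aspa and Opalin, and Bub1 passed it only through its activated arrays. These counts were therefore partly set by the filter, while the sums cover all matched markers. The summed signal of 9 microglial markers was likewise higher on quiescent arrays (387 to 701 against 159 to 185). Csf1r, the 1 of them tested, met the brightness filter only through its quiescent arrays (activated mean 5.72) and was not called (-1.28). P2ry12, Cx3cr1 and Csf1r lay above background on all 3 quiescent arrays and above every activated one. Aif1, C1qa, C1qc and Tmem119 were at or below background on every array. Of 4 tested oligodendrocyte progenitor markers 1 rose, Olig2 (3.22 ± 0.67), and 0 fell (limma, with 1 lower at an unadjusted p under 0.05). Of 4 tested mature neuron markers 1 rose, Rbfox3 (4.82 ± 1.20, above background on 1 quiescent array), and 0 fell. Rbfox3 passed the brightness filter only through its activated arrays (quiescent mean 4.32). Syt1 (quiescent mean 6.31, activated 3.81) and Slc17a7 (5.15 and 4.32) were too dim to be tested. The counts of both lists were therefore also partly set by the filter. The sums of these 2 lists overlapped between the groups (563 to 2030 against 1875 to 2447, and 939 to 1802 against 1524 to 3084). No marker was listed at 0 on all arrays. The proliferation and neuroblast markers moved in the same direction as Mycn, Mycl and Mxd3, and their part in these rises was not tested.

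The genes around the network were taken from 7 lists by role, 78 genes in all, of which 73 were matched and bright enough to be tested. Of these 34 rose and 4 fell, against the 17.3% and 17.6% of all genes given above. Every list median lay above the median of all genes, 0.01.

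Among the remaining relatives of the network, 0 of 3 passed (limma, also 0 at an unadjusted p under 0.05). Mlxipl, the glucose-responsive partner of MLX known as ChREBP, read 7.42, 6.71 and 8.07 on quiescent and 8.25, 8.65 and 8.56 on activated arrays. Its groups did not overlap, but the difference of 1.08 ± 0.49 missed the threshold (limma adjusted p = 0.109). Mlxip, or MondoA, differed by 0.60 ± 0.46 and Mga, a large MAX partner that also carries a T-box domain, by 0.07 ± 0.28.

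Of 10 tested coactivators that MYC recruits to chromatin, 5 rose and 0 fell (limma, also 0 at an unadjusted p under 0.05), with a median of 1.04. Ruvbl2, an ATPase of the TIP60 and INO80 complexes, read 8.69, 9.85 and 8.71 on quiescent and 11.44, 11.74 and 11.20 on activated arrays. The groups lay apart, and the rise was 2.38 ± 0.37 (limma adjusted p = 0.000891). Actl6a, an actin-like subunit of chromatin remodellers, rose by 2.65 ± 0.60 and Ccnt1, the cyclin of the elongation kinase CDK9, by 1.80 ± 0.42. Under scaling to the hybridisation controls 8 rose.

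Corepressors that MXD proteins and MNT recruit rose as well, in 4 of 8 tested cases, and fell in 0 (limma, also 0 at an unadjusted p under 0.05), with a median of 0.69. Sap30, a SIN3 complex subunit, rose by 1.35 ± 0.31 (limma adjusted p = 0.00714), and the deacetylases Hdac1 and Hdac2 by 1.53 ± 0.38 and 1.31 ± 0.33. The scaffold proteins themselves did not pass, with 0.40 ± 0.42 for Sin3a and -0.24 ± 0.31 for Sin3b. Sap18 and Ncor1 were not matched to a probe set of 1 gene.

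Of 10 tested genes that act on the stability of MYC proteins, 6 rose and 0 fell (limma, also 0 at an unadjusted p under 0.05), with a median of 1.402. They include proteins with opposite effects. Cip2a, an inhibitor of the phosphatase PP2A that protects MYC, read 6.50, 7.39 and 7.04 on quiescent and 10.50, 10.82 and 10.75 on activated arrays. The activated arrays were all well above, and the rise was 3.71 ± 0.39 (limma adjusted p = 0.000106). Aurka, a mitotic kinase that binds and stabilizes N-MYC, rose by 5.06 ± 0.64, with 1 quiescent array below background. Fbxw7, which encodes the F-box protein that marks MYC and N-MYC for degradation, rose by 2.17 ± 0.36 (limma adjusted p = 0.00122).

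Of 30 genes that MYC proteins are known to activate, 18 rose, 0 fell and 12 did not pass (limma, also 0 lower at an unadjusted p under 0.05), with a median of 1.41. Their summed linear signal was 44036 to 74051 on the quiescent and 137873 to 150617 on the activated arrays, with no overlap. Cdk4, the G1 kinase, read 9.42, 10.10 and 10.49 against 13.22, 13.26 and 13.22. The rise was 3.23 ± 0.30 (limma adjusted p = 6.27e-05). Cad, which encodes the enzyme of the first steps of pyrimidine synthesis, rose by 3.28 ± 0.36, and Dkc1, a pseudouridine synthase of ribosomal RNA and telomerase, by 3.90 ± 0.44. Genes for division and for ribosome production are part of this list, so it also overlaps in function with the proliferation markers. Lactate dehydrogenase (Ldha, -0.10 ± 0.31) and the transferrin receptor (Tfrc, -0.29 ± 0.31), both classical targets, were chosen after their values were seen as the members of the list below 0. Without activated array 2 the number that rose was 14, and with the hybridisation controls 25.

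The E-box was present in the promoter window of 8 of 24 of these targets with a window (33.3%), against 8.09% of all 27025 genes in the promoter table. The list was chosen as known targets of proteins that bind this motif, so its higher share is not an independent result. Of the 8 targets with it 4 rose, with a median difference of 1.25, and of the 16 without it 9 rose, with a median of 1.22. The 4 were Cdk4, Apex1, Nme1 and Mybbp1a. To show the motif in targets that rose, 30 bases around it are given for Cdk4 (chr10:127063351-127063380, plus strand), Apex1 (chr14:50924913-50924942, plus) and Nme1 (chr11:93968273-93968302, minus, the first of its annotated promoter windows with the motif), from RefSeq on GRCm38.p6.
Cdk4: atggcagccagtCACGTGccacacagcgta
Apex1: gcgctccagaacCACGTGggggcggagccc
Nme1: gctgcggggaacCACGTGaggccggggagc

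Apex1, a DNA repair endonuclease, rose by 2.40 ± 0.34 and Nme1, a nucleoside diphosphate kinase, by 1.64 ± 0.40. A second Nme1 window held an E-box 29 bases before its own start site. The E-boxes shown began 172 (Cdk4), 24 (Apex1) and 18 (Nme1) bases before the start site.

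Of 8 tested genes described as repressed by MYC, 3 fell and 0 rose (limma, with 2 higher at an unadjusted p under 0.05), yet the list median was 0.50 because the other 5 lay above 0. Ndrg1 read 12.35, 11.49 and 12.59 on quiescent and 5.94, 8.26 and 6.71 on activated arrays. The quiescent arrays were all above. Ndrg1 fell by 5.17 ± 0.56 (limma adjusted p = 0.00012). The chaperone gene Clu fell by 3.77 ± 0.44 and Ndrg2 fell by 2.01 ± 0.34. Ndrg2 and Clu are known as abundant astrocyte genes and Ndrg1 as a gene of myelinating cells, and oligodendrocyte markers fell in 11 of 11 tested cases on the same arrays. In a list of 10 markers that neural stem cells and astrocytes share or that mark either, which includes the sort genes Gfap and Prom1, 8 fell and Nes, a marker of neural stem cells, rose by 2.48 ± 0.74. The part of these markers in the 3 falls was not tested. The CDK inhibitors on the list did not pass, with 1.17 ± 0.92 for Cdkn1a, 0.72 ± 0.32 for Cdkn1b and 1.28 ± 0.63 for Cdkn2b. Under alternatives the number that rose was 0 to 2.

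Of 4 targets of the Mondo and MLX dimer, 1 rose and 1 fell. Txnip, an inhibitor of glucose uptake, read 8.87, 9.54 and 10.05 against 11.31, 10.98 and 11.46, and rose by 1.77 ± 0.35 (limma adjusted p = 0.00348). Pklr, a pyruvate kinase of liver and red cells, fell by 1.88 ± 0.62 (limma adjusted p = 0.0364), a call that was lost without any 1 of the arrays other than quiescent array 2, after quantile normalization and with the hybridisation controls. It was too dim to be tested with the filter at the 60th percentile or as the mean of its probe sets.

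**Figure D3:**
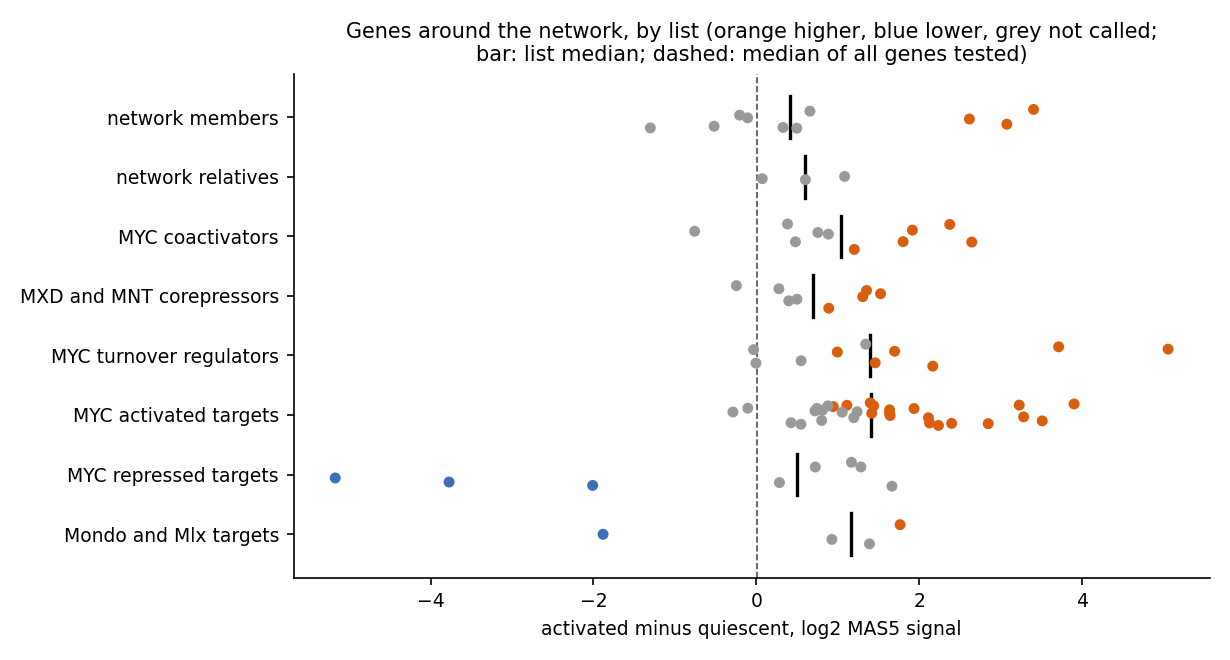
Each point is a gene's activated minus quiescent difference in log2 MAS5 signal, for the 10 members and the 7 lists around them, with the list median as a black bar and the median of all tested genes, 0.01, as a dashed line. Points that passed an adjusted p of 0.05 are orange when higher (3 members, 18 of 30 activated targets) and blue when lower (3 repressed targets and Pklr).

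The 3 rises held in every setting tried. Mycn was between 1.48 and 3.72, Mycl between 3.04 and 4.05 and Mxd3 between 2.40 and 3.26, with limma adjusted p-values up to 0.00982, 0.00421 and 0.00303. Of the 7 other members, Mxd1 was called once, without quiescent array 3, and Max, Mxd4, Mxi1 and Mnt changed sign under at least 1 setting.

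**Figure D4:**
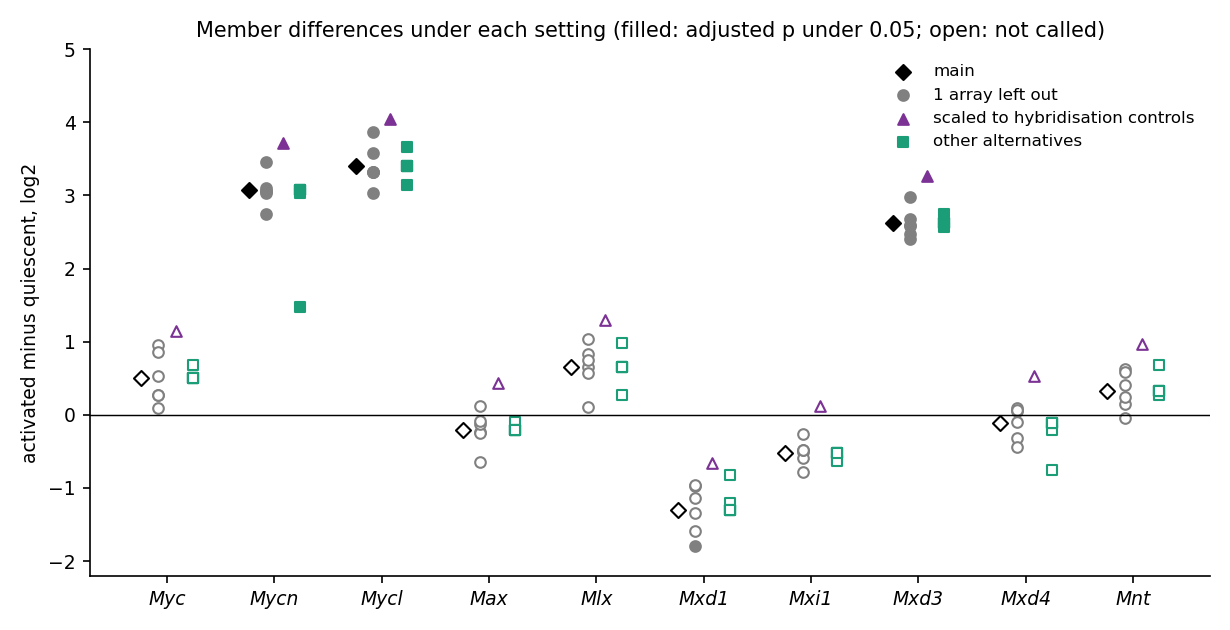
The activated minus quiescent difference of each member is shown under the main setting (black), with 1 array left out (grey), after scaling to the hybridisation controls (purple) and under the other alternatives (green), filled where the adjusted p was under 0.05. Mycn, Mycl and Mxd3 are filled throughout, and the lone green point of Mycn at 1.48 is the mean that includes its probe set below background.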

How the data were processed

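RNA of 3 quiescent and 3 activated neural stem cell samples was measured on 1-colour Affymetrix arrays. Per the labels' protocols, miRNeasy columns gave the total RNA, which a Nugen Pico kit amplified before biotin labelling. The deposited values are log2 signals, by their range, for which the submitters' processing notes name MAS5. Its version and any detection calls are not stated. Each array's 2% trimmed mean of the linear signal was 499.9, so differences in RNA per cell are removed. The number of arrays limits the precision.

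Of 45037 probe sets other than controls, 34945 were paired with exactly 1 gene, 932 with several and 9160 with none. Current symbols came from RefSeq's GRCm38.p6 gene table, which held the Entrez identifiers of 99.4% of single-gene probe sets. Genes whose brightest probe set had a mean log2 signal of at least 6.02, the 40th percentile, were tested (11575 of 18193) by lmFit and a trended eBayes step (limma 3.58.1, R 4.3.3), without a block, and called at an adjusted p under 0.05. The same fit was made over 22607 probe sets. Background was the 95th percentile of 27 control probe sets for bacterial transcripts.

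The members and lists were chosen with earlier results of these data known. All members were described, and in each list the 3 calls with the smallest adjusted p in its more frequent direction, plus 1 in the opposite one, were named, or every gene if nothing was called. Other genes were named after their values were seen. The labels state no pairing, and the replicate numbers were not used to pair the arrays in the main fit. Correlations of the deviations of same-numbered arrays over genes were 0.056, -0.025 and 0.029. With 3 arrays per group these values cannot exclude shared animals or sort days. Alternatives were 2 filters, 2 scalings, no trend, values raised to background, other probe set rules, a replicate block and each array left out. Figures were drawn with matplotlib 3.10.9.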

Additional observations from a re-analysis of the deposited data

How the results depend on the processing

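Of 150 differences of single members under alternatives, 141 kept their direction and their side of the threshold, 8 changed sign and 1 became called. After scaling to the hybridisation controls the differences of Max, Mxd4 and Mxi1, none of them called, were 0.44, 0.54 and 0.13. With 1 array left out Max lay between -0.65 and 0.12, Mxd4 between -0.43 and 0.0919, Mnt between -0.0442 and 0.62 and Mxd1 between -1.80 and -0.96. The count of members that fell was 0 to 1 by gene and 0 to 1 by probe set with 1 array left out, the 1 in each case arising without quiescent array 3 (by gene, Mxd1). The count of member probe sets that rose was 4 of 15 with the filter at the 60th percentile, which leaves fewer to test. With the replicate number as a block (replicate block), 3 members rose and 0 fell, and of the list genes 35 rose and 4 fell. Counts over the list genes stayed within 1.5 times of 34 and 4 under the alternatives, with 27 to 36 rising when 1 array was left out and 51 with the hybridisation controls. Of 210 counts of single lists 21 moved by more. The cause was not tested. MAS5 signals near background limit the dim probe sets.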
